A study of Mus musculus with 8 samples.

Results

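The genes described here are the writers and erasers of DNA methylation: Dnmt1, Uhrf1 and Hells, which keep methylation in place when DNA is copied, Uhrf2, the paralog of Uhrf1, Dnmt3a and Dnmt3b, which methylate DNA anew, and Tet1, Tet2 and Tet3, which oxidise the mark. They were taken by symbol, 9 of the 34432 rows of the normalized table, and were chosen with earlier results of these data known. Polyadenylated RNA had been sequenced from mouse bone marrow-derived macrophages, which are grown in culture from marrow precursors and were taken untreated on day 7 of differentiation. The double knockout (DKO, 4 libraries) was Cdk8 flox/flox Vav-iCre Cdk19null, so that it carried a floxed Cdk8, a Cre recombinase driven in blood-forming cells by the Vav promoter, and a null Cdk19. The control (VAV-cre, 4 libraries) is labelled as carrying the Vav Cre, with no Cdk8 or Cdk19 allele named. Cdk8 and Cdk19 encode paralogous kinases of the Mediator complex, and the comparison asked which transcripts differed when both were targeted. Nothing in the labels says that replicates were separate animals or cultures. The p-values therefore measure only the spread between these libraries, which may be technical.

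DNA methylation in mammals sits mostly on cytosines followed by guanine. When a fork passes, the new strand lacks the mark, UHRF1 binds the hemimethylated sites and recruits DNMT1 to complete them, and HELLS, a nucleosome remodeller, gives access to DNA packed on nucleosomes. DNMT3A and DNMT3B set marks where there were none, and the TET enzymes oxidise them, after which the mark is lost by copying or by base excision. In blood-forming cells, DNMT3A and TET2 are best known for mutations in human clonal haematopoiesis and myeloid leukaemia.

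Values are normalized read counts, which are reads divided by a size factor for each library, shown as mean ± SD over the 4 libraries of a group (n = 4). Fold changes are DKO over VAV-cre on the log2(value + 1) scale from limma, with Benjamini-Hochberg adjusted p-values over 11675 genes tested and a threshold of 0.05. Libraries held 17856715 to 21353207 reads. Cdk19 stood at 373 ± 25.8 in DKO and 1452 ± 189 in VAV-cre libraries (log2 -1.95, adjusted p = 2.95e-08), and Cdk8 at 347 ± 60.8 in DKO and 439 ± 24.5 in VAV-cre libraries (log2 -0.35, adjusted p = 0.0374, above 0.05 in 11 of 18 alternative analyses). Both are totals over the whole gene and may include exons outside a deleted part, so they do not show how much kinase was left. All 10 macrophage markers were read in every library and 5 rose while 5 fell, with a summed level of 239061 to 259919.8 in DKO and 307789.9 to 324989 in VAV-cre libraries. The largest part of these sums was Lyz2, at 96662 ± 3387 in DKO and 160549 ± 7665 in VAV-cre libraries, so the sums mostly follow that gene. Lymphocyte markers summed to 0 to 17 in DKO and 0 to 4.44 in VAV-cre libraries, with Cd3e, Cd3d and Ncr1 at 0 in all libraries. Other lists were not as empty. Stromal markers summed to 99.4 to 281 in DKO and 229 to 327 in VAV-cre libraries, and Col1a2 was lower in DKO (log2 -0.66, adjusted p = 0.045). Dendritic markers summed to 32.2 to 65.3 in DKO and 49.3 to 83.9 in VAV-cre libraries.

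Of the 9 genes, 8 were tested. In DKO macrophages 3 fell, Uhrf1, Hells and Dnmt1, all of them genes of maintenance. Dnmt3a was the 1 gene that rose. Uhrf2, Dnmt3b, Tet2 and Tet3 did not pass the test, and Tet1 was too low to test. Across all genes tested, 46.6% were called, 22.9% higher and 23.8% lower in DKO, and the median log2 fold change was 0.01. In the same 4 of the 8 genes the DKO and VAV-cre libraries did not overlap, against 42.9% of all genes tested. Both counts are therefore near the background, and what follows describes which genes moved, by how much and with which partners.

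**Figure D1:**
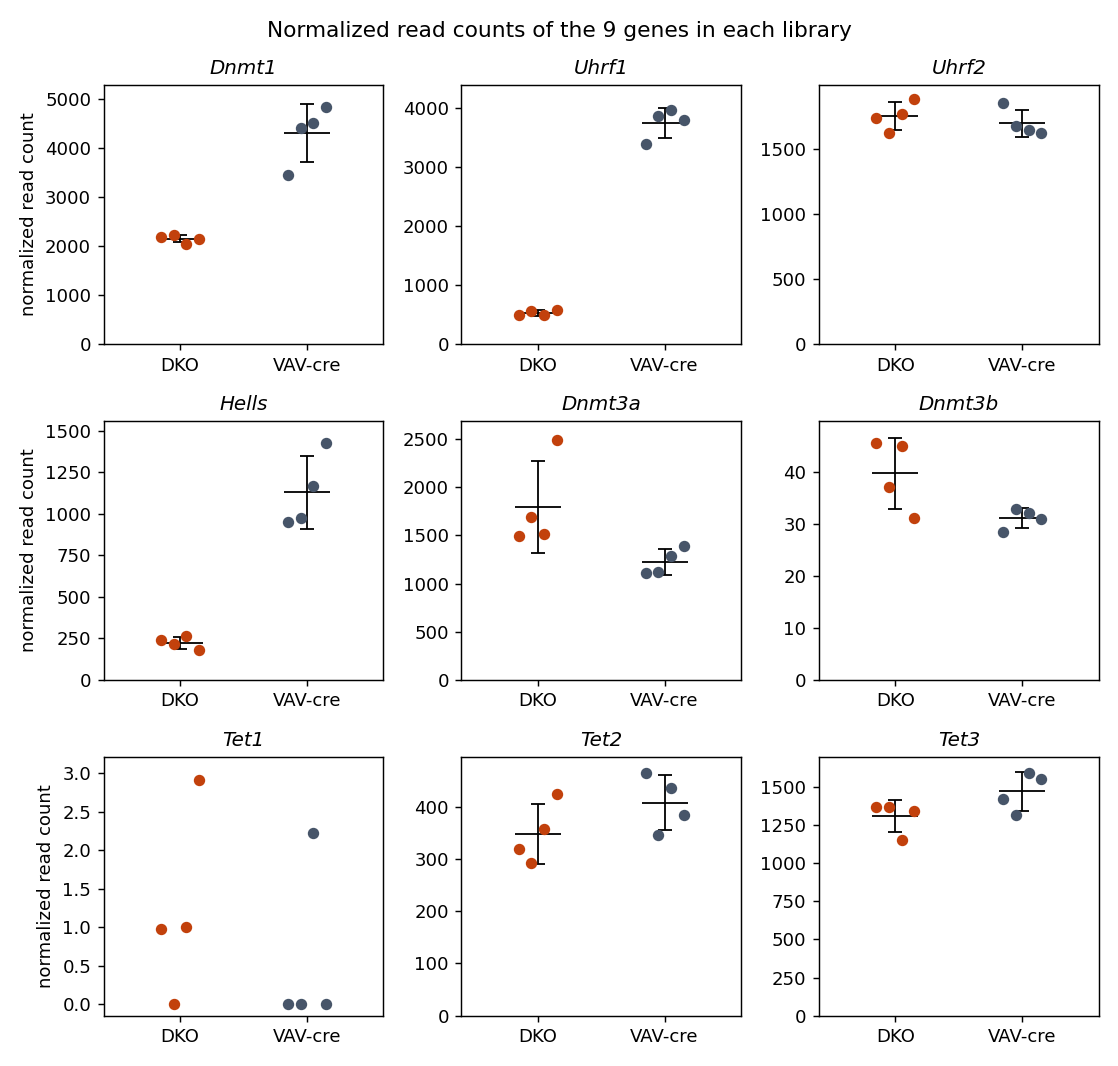
Normalized read count of each of the 9 genes (vertical axis, starting at 0 for the 8 tested) in the 4 DKO libraries (left) and the 4 VAV-cre libraries (right); points are libraries, horizontal lines are means and bars are SD, not drawn for Tet1. The DKO points of Dnmt1, Uhrf1 and Hells lie below all VAV-cre points, those of Dnmt3a lie above them, and no Tet1 value exceeds 2.92.

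Uhrf1 (ENSMUSG00000001228, mm10 chromosome 17, 56303321 to 56323486, plus strand) showed the largest change of the 8 genes. It held 491, 562, 487 and 581 in DKO libraries 1 to 4, against 3388, 3867, 3965 and 3794 in VAV-cre libraries 1 to 4. The groups lie far apart, and the highest DKO library was well below the lowest VAV-cre library. The means were 530.3 ± 48.1 in DKO and 3753 ± 254 in VAV-cre libraries, a 7.08-fold fall that left 14.1% of the control level (log2 -2.82, SE 0.08, 95% interval -3.00 to -2.64, adjusted p = 4.35e-10). By size of change Uhrf1 ranked 185 among all genes tested, and 128 of these had a lower log2 fold change.

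Uhrf2 (ENSMUSG00000024817, chromosome 19, 30030513 to 30093722, plus strand), the paralog that shares the domain layout of UHRF1 but does not replace it in maintenance, had 1735, 1620.3, 1764 and 1882 in DKO libraries, against 1851, 1673, 1645 and 1622 in VAV-cre libraries. The groups overlap almost entirely. Its log2 fold change was 0.04 (SE 0.07, 95% interval -0.11 to 0.20, adjusted p = 0.64), so the interval leaves room for small changes in either direction and none near that of Uhrf1. The ratio of Uhrf1 to Uhrf2 within a library, on a log2 scale and not corrected for length, was -1.82, -1.53, -1.85 and -1.69 in DKO libraries, against 0.87, 1.21, 1.27 and 1.23 in VAV-cre libraries. It was negative in every DKO library and positive in every VAV-cre library, a difference of -2.87 (exact two-sided permutation p = 0.0286, the smallest that the 70 regroupings of 4 against 4 allow, and 0.05 after adjustment over 7 ratios, which is at and not under the threshold). Per kilobase of the principal GENCODE transcript, Uhrf1 made up 23% ± 1.84 of the summed level of both genes in DKO and 68.5% ± 2.79 in VAV-cre libraries. With the length of all annotated exons instead, its share was 37.9% ± 2.43 in DKO and 81.6% ± 1.97 in VAV-cre libraries.

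The stretches just before the start sites of both genes are shown because the fold changes of these paralogs lay so far apart. They are the 250 bases upstream of 1 RefSeq start site each (for Uhrf1, the site whose window held a word), on the gene's strand, from the RefSeq promoter table of GRCm38.p6 (the assembly that mm10 holds), and capitals mark an E2F-type word. E2F factors drive many genes of the G1 to S transition and bind words of the form searched here, TTTCCCGC, TTTCGCGC, TTTGCCGC and TTTGGCGC, on either strand. Uhrf1 is at chr17:56304063-56304312 and Uhrf2 at chr19:30030263-30030512, both plus strand.
Uhrf1: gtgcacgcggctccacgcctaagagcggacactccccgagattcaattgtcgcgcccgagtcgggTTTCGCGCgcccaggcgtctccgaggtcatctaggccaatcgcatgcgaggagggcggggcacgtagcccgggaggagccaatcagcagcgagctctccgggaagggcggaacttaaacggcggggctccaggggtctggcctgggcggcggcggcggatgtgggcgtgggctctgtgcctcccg
Uhrf2: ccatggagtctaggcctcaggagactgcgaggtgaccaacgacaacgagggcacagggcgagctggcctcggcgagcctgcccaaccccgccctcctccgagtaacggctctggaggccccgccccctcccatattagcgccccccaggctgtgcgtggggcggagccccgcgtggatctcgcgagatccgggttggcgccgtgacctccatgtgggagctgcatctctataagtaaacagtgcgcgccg
The Uhrf1 stretch holds 1 word, TTTCGCGC, starting at position -185 from the start site, and 30 CG dinucleotides. The Uhrf2 stretch holds none of the 4 words and 23 CG dinucleotides. A second RefSeq start site of Uhrf1 had no such word in its window of 300 bases. That window held 12 CG dinucleotides, against 33 in the window of the Uhrf1 site shown and 28 in that of Uhrf2. Which gene holds more CG therefore depends on the start site taken. In the whole 300-base windows (250 before and 50 after the start), 2.26% of 32851 promoters held at least 1 of the words, as did 441 of the 9183 tested genes with a promoter in the table (4.8%). A match is a description of the letters and not evidence that a factor binds there.

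Hells (ENSMUSG00000025001, chromosome 19, 38930915 to 38971051, plus strand), the remodeller whose loss in mice and in human immunodeficiency with centromeric instability lowers methylation of repeats, held 237, 217, 263 and 179 in DKO libraries, against 948, 974, 1167 and 1423 in VAV-cre libraries. Every DKO library was far below every VAV-cre library, and VAV-cre libraries spread more widely. The means were 224 ± 35.3 in DKO and 1128 ± 219.8 in VAV-cre libraries, leaving 19.9% of the control level (log2 -2.32, SE 0.15, 95% interval -2.65 to -1.99, adjusted p = 1.9e-07). Dnmt1 (ENSMUSG00000004099, chromosome 9, 20907209 to 20959888, minus strand), the maintenance enzyme itself, held 2178, 2221, 2047 and 2147 in DKO libraries, against 3452, 4407, 4517 and 4830.3 in VAV-cre libraries. The DKO libraries were close to each other, and VAV-cre library 1 was the lowest of its group but still above all of them. Dnmt1 averaged 2148 ± 74.2 in DKO and 4301 ± 594 in VAV-cre libraries, a 1.99-fold fall (log2 -0.99, SE 0.09, 95% interval -1.19 to -0.79, adjusted p = 4.41e-06).

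Of the 8 genes tested, Uhrf1, Hells and Dnmt1 were the 3 with an E2F-type word in a promoter window (37.5%). The sites of Hells and Dnmt1 are shown as stretches of 30 bases on the gene's strand, with the word in capitals, at chr19:38930917-38930946 (plus strand), chr9:20952824-20952853 and chr9:20952574-20952603 (both minus strand).
Hells: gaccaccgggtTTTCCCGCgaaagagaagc
Dnmt1 first site: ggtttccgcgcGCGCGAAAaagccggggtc
Dnmt1 second site: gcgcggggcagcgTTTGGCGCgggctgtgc
The Hells word starts at position -62 from the RefSeq start site, and it lies, like both Dnmt1 words, inside a UTR of the GENCODE annotation. In the first site of Dnmt1, at position -219, the capitals are the reverse complement of TTTCGCGC, so the word lies on the opposite strand, and the second site starts at position 34 after the start. The other RefSeq start sites of Dnmt1 had none. The 4 words were found in 10 of 25 S phase genes with a promoter in the table and in 1 of 16 mitosis genes (6.25%). Uhrf2, Dnmt3a, Dnmt3b, Tet1, Tet2 and Tet3 had none of these letters in their windows, which says nothing of E2F binding.

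**Figure D2:**
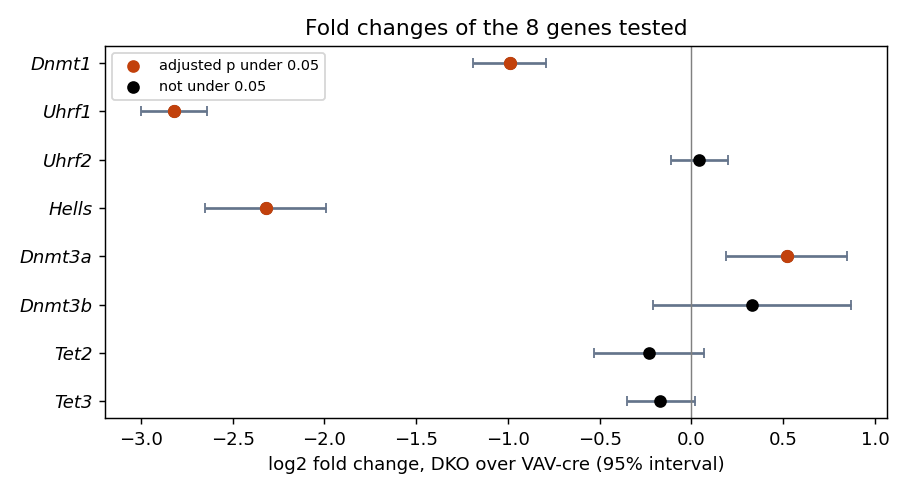
Log2 fold change of the 8 genes tested, DKO over VAV-cre (horizontal axis), with bars for 95% intervals; filled orange points have an adjusted p under 0.05 and black points do not. Uhrf1 (-2.82), Hells (-2.32) and Dnmt1 (-0.99) lie left of 0, Dnmt3a (0.52) lies right of it, and the intervals of Uhrf2, Dnmt3b, Tet2 and Tet3 span 0.

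Genes of DNA synthesis fell as Uhrf1, Hells and Dnmt1 did. All 30 genes of an S phase and replication list fell in DKO, with a median log2 fold change of -1.78 and a range of -3.83 to -0.74, and all 20 genes of a mitosis list fell, with a median of -2.98. Rrm2, a subunit of ribonucleotide reductase, had a log2 fold change of -3.83 (adjusted p = 2.5e-10), and Mki67, the gene of a proliferation antigen, one of -3.43 (adjusted p = 2.5e-10). Several markers of monocytes, neutrophils and marrow progenitors were lower as well. Of 6 monocyte markers 4 fell, with a summed level of 439.8 to 513 in DKO and 2581 to 3016 in VAV-cre libraries, of 9 neutrophil markers 7 were tested and all 7 fell, at 449 to 729.7 in DKO and 1915 to 3374 in VAV-cre libraries, and of 5 progenitor markers 3 were tested and 2 fell, at 274 to 338 in DKO and 1216 to 1366 in VAV-cre libraries. In bulk RNA, fewer cells of a kind and less RNA per cell cannot be told apart. The part of cycling, less mature or other marrow cells in the falls of Uhrf1, Hells and Dnmt1 was not tested.

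The 3 genes held different places against that list. Of the 30 S phase genes, 28 had a lower log2 fold change than Dnmt1, 7 a lower one than Hells and 3 a lower one than Uhrf1. Dnmt1 relative to the mean of the S phase list within a library (log2 scale) was 2.46, 2.31, 2.32 and 2.31 in DKO libraries, against 1.17, 1.42, 1.48 and 1.62 in VAV-cre libraries, a difference of 0.93. Uhrf1 relative to the same list was 0.32, 0.33, 0.25 and 0.42 in DKO libraries, against 1.14, 1.23, 1.29 and 1.28 in VAV-cre libraries, a difference of -0.91. In both ratios the groups did not overlap, with the DKO libraries higher for Dnmt1 and lower for Uhrf1 (exact two-sided permutation p = 0.0286 each, 0.05 after adjustment over 7 ratios). Hells relative to the list averaged -0.92 ± 0.29 in DKO and -0.51 ± 0.28 in VAV-cre libraries, and the groups overlapped (exact permutation p = 0.143, adjusted 0.2).

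**Figure D3:**
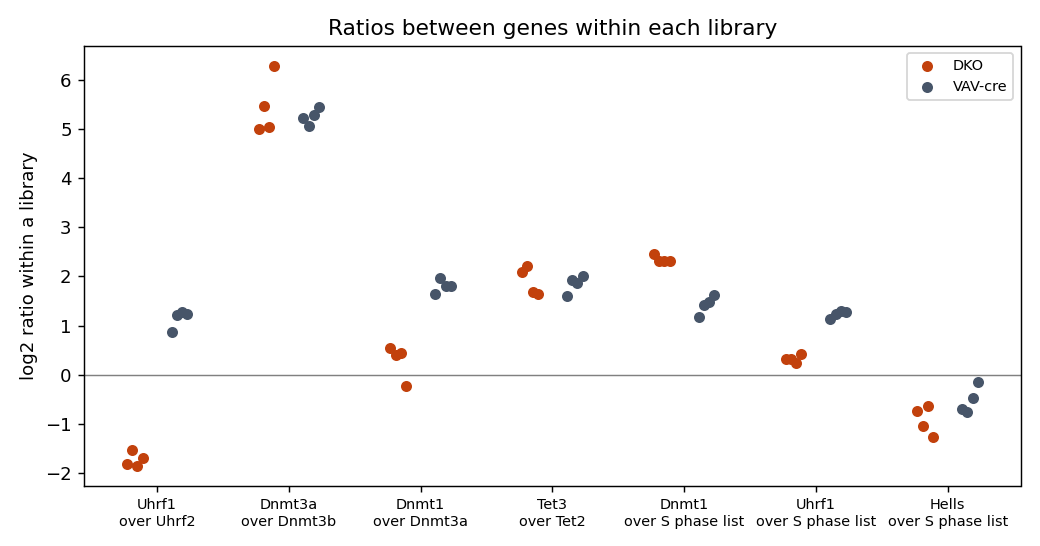
Log2 ratio of 1 gene to another, or of 1 gene to the mean of the S phase list, within each library (vertical axis); DKO libraries are orange and to the left of the VAV-cre libraries, which are grey, in each of the 7 ratios. Uhrf1 over Uhrf2 is below 0 in all DKO libraries and above 0 in all VAV-cre libraries, while Dnmt3a over Dnmt3b and Tet3 over Tet2 overlap between the groups.

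Partners of maintenance were taken from a list of 13 genes, of which 12 were tested, 9 fell and none rose (median log2 fold change -0.36). Across all genes tested 23.8% were lower and 22.9% higher in DKO. Pclaf, whose product binds PCNA and, once ubiquitylated by UHRF1, recruits DNMT1, held 354, 336, 416 and 345 in DKO libraries, against 3799, 3562, 3488 and 3501 in VAV-cre libraries. It fell 9.89-fold (log2 -3.31, SE 0.08, adjusted p = 1.89e-10), further than any of the 8 genes. Lig1, the ligase that joins Okazaki fragments and is bound by UHRF1, stood at 1087 ± 99.7 in DKO and 3703 ± 239 in VAV-cre libraries (log2 -1.77, adjusted p = 8.07e-09). Cdca7, which encodes the partner that HELLS needs for remodelling, stood at 169 ± 40.4 in DKO and 533 ± 31.6 in VAV-cre libraries (log2 -1.68, adjusted p = 2.78e-06). Pcna, the sliding clamp to which DNMT1 binds, stood at 7381 ± 94 in DKO and 13431 ± 933 in VAV-cre libraries (log2 -0.86, adjusted p = 4.13e-07), and it is also among the 30 S phase genes. Smaller falls were those of Smchd1 (log2 -0.77), Hdac1 (-0.43), Usp7 (-0.29), Cdca7l (-0.27) and Ehmt1 (-0.21, adjusted p = 0.0376, above 0.05 in 10 of 18 alternative analyses). Ehmt2, Hdac2 and Dmap1 did not pass the test, with log2 fold changes of 0.22, -0.17 and 0.16, and Dppa3, with 3 reads in DKO and 21 in VAV-cre libraries, was too low to test.

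Dnmt3a (ENSMUSG00000020661, chromosome 12, 3806007 to 3914443, plus strand), the main de novo enzyme of blood-forming cells, held 1492, 1688, 1511 and 2494 in DKO libraries, against 1109, 1125, 1287 and 1391 in VAV-cre libraries. The groups did not overlap, DKO library 4 was far above the other 3 and DKO library 1 was just above the highest VAV-cre library. The means were 1796 ± 473 in DKO and 1228 ± 135 in VAV-cre libraries (1.44-fold, log2 0.52, SE 0.15, 95% interval 0.19 to 0.85, adjusted p = 0.0149). Without DKO library 4 the log2 fold change was 0.35 (adjusted p = 0.0149). Dnmt3b (ENSMUSG00000027478, chromosome 2, 153649450 to 153687730, plus strand) was sparse, with 45.6, 37.2, 45 and 31.2 in DKO libraries, against 28.5, 32.9, 32.2 and 30.9 in VAV-cre libraries. The DKO libraries lay above all VAV-cre libraries but for DKO library 4, the library that was highest for Dnmt3a. Its log2 fold change was 0.33 (SE 0.25, 95% interval -0.21 to 0.87, adjusted p = 0.295) on 161 reads in DKO and 124 in VAV-cre libraries, an interval wide enough to hold the change of Dnmt3a. The ratio of Dnmt3a to Dnmt3b averaged 5.45 ± 0.59 in DKO and 5.25 ± 0.16 in VAV-cre libraries on the log2 scale (exact permutation p = 0.743, two-sided). The annotated antisense genes Dnmt3aos and Dnmt3bos overlap these genes and were not analysed here, and with no statement in the sources on strand-specific counting, reads of an antisense partner cannot be told from those of the gene.

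Maintenance and de novo enzymes were set against each other within each library. The log2 ratio of Dnmt1 to Dnmt3a was 0.55, 0.40, 0.44 and -0.22 in DKO libraries, against 1.64, 1.97, 1.81 and 1.80 in VAV-cre libraries. These ratios are of counts not corrected for length, and DKO library 4 was the only one with a value below 0. The difference was -1.51 (exact two-sided permutation p = 0.0286, 0.05 after adjustment over 7 ratios). Dnmt1 was lower and Dnmt3a higher in every DKO library than in any VAV-cre library. The separation of the ratio and its p-value follow from that and add no support. Per kilobase of principal transcript Dnmt1 was above Dnmt3a in every library: Dnmt3a made up 30.9% ± 5.33 of the summed level of the 3 methyltransferases in DKO and 13.6% ± 1.1 in VAV-cre libraries, Dnmt1 67.6% ± 4.99 in DKO and 85.6% ± 1.12 in VAV-cre libraries, and Dnmt3b 1.57% ± 0.383 in DKO and 0.777% ± 0.0775 in VAV-cre libraries.

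None of the erasers passed the test. Tet3 (ENSMUSG00000034832, chromosome 6, 83362373 to 83459084, minus strand) held 1369.9, 1371, 1153 and 1339 in DKO libraries, against 1418, 1318, 1591 and 1553 in VAV-cre libraries. The groups overlapped through VAV-cre library 2 (log2 -0.17, SE 0.08, 95% interval -0.35 to 0.02, adjusted p = 0.126). Tet2 (ENSMUSG00000040943, chromosome 3, 133463679 to 133545139, minus strand), the TET gene most often mutated in myeloid disease, held 319, 292, 357 and 425 in DKO libraries, against 464, 346, 437 and 384 in VAV-cre libraries. These values overlap widely (log2 -0.23, SE 0.14, 95% interval -0.53 to 0.07, adjusted p = 0.19). Both intervals allow a fall of modest size. Tet1 (ENSMUSG00000047146, chromosome 10, 62804570 to 62908996, minus strand) had 1, 0, 1 and 3 reads in DKO libraries, against 0, 0, 2 and 0 reads in VAV-cre libraries. Its highest normalized value was 2.92, so no difference was detectable at this depth and no fold is given. The log2 ratio of Tet3 to Tet2 averaged 1.92 ± 0.29 in DKO and 1.85 ± 0.17 in VAV-cre libraries (exact permutation p = 0.714, two-sided). Per kilobase of principal transcript Tet3 made up 85.2% ± 2.51 of the summed TET level in DKO and 84.8% ± 1.59 in VAV-cre libraries. With the length of all annotated exons its share was 79.1% ± 3.32 in DKO and 78.4% ± 2.07 in VAV-cre libraries. Genes annotated on the opposite strand, Gm42567 at Tet2 and B230319C09Rik at Tet3, were not analysed here.

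Ordered by level per kilobase of the principal transcript, DKO macrophages had Uhrf2 first (495), followed by Dnmt1 (400.2), Tet3 (220.1), Dnmt3a (185), Uhrf1 (148), Hells (38.2), Tet2 (38), Dnmt3b (9.2) and Tet1 (0.0852). In VAV-cre macrophages the order was Uhrf1 (1047), Dnmt1 (801), Uhrf2 (480.0), Tet3 (247), Hells (192), Dnmt3a (127), Tet2 (44.4), Dnmt3b (7.2) and Tet1 (0.0386). Neighbours whose libraries overlapped were Tet3 and Dnmt3a, Dnmt3a and Uhrf1, and Hells and Tet2 in DKO, and Tet3 and Hells in VAV-cre libraries. With the length of all annotated exons in place of the principal transcript, the first in DKO libraries was Dnmt1 (291) ahead of Uhrf2 (204). Uhrf1 (125) stood above Dnmt3a (108) with overlapping libraries, and Tet3 (78.4) lay below Dnmt3a without overlap. The order of these genes in DKO therefore depends on the length used. With that length VAV-cre libraries again began with Uhrf1 (881) and Dnmt1 (583), but Hells (157) stood above Tet3 (88) without overlap.

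Partners of the de novo and TET enzymes were called in both directions. Of 10 genes 7 were tested, 2 rose, 1 fell and 4 did not pass (median log2 fold change -0.04). Across all genes tested 46.6% were called, 22.9% higher and 23.8% lower in DKO. The counts of this list and of those that follow stand against that share. Dnmt3l, the inactive relative that stimulates DNMT3A and DNMT3B in germ cells, held 51.5, 76.4, 121 and 76 in DKO libraries, against 24.6, 28, 31.1 and 10.6 in VAV-cre libraries. Every DKO library was above every VAV-cre library at a low level (81.2 ± 29 in DKO and 23.6 ± 9.04 in VAV-cre libraries, 3.43-fold, log2 1.78, SE 0.37, adjusted p = 0.00191). Setd2, which writes the histone methylation of transcribed genes that the de novo enzymes read, stood at 1608 ± 152 in DKO and 1121 ± 157 in VAV-cre libraries (log2 0.53, adjusted p = 0.00174). Spi1, which encodes the myeloid factor PU.1, a reported binding partner of TET2 and DNMT3A, stood at 7312 ± 278 in DKO and 9248 ± 553 in VAV-cre libraries (log2 -0.34, adjusted p = 0.000786). Setdb1, Nsd1, Ogt and Trim28 did not pass, and Cxxc4 and Zfp57 had no read in any library.

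Among 12 genes of base excision of modified cytosine, 4 fell, 2 rose and 6 did not pass (median log2 fold change -0.11). Neil3, a glycosylase of cycling cells, stood at 28.8 ± 6.26 in DKO and 287 ± 36.4 in VAV-cre libraries (log2 -3.29, adjusted p = 7.41e-08). Ung, the uracil glycosylase, stood at 134 ± 13 in DKO and 517 ± 16.2 in VAV-cre libraries (log2 -1.94, adjusted p = 6.04e-08), and Parp1, a sensor of strand breaks, at 2101 ± 160.3 in DKO and 3564 ± 200.4 in VAV-cre libraries (log2 -0.76, adjusted p = 4.08e-06). Neil2 rose, with 41.7, 69.4, 78 and 51.6 in DKO libraries, against 20.6, 21.3, 25.5 and 16.4 in VAV-cre libraries (log2 1.45, adjusted p = 0.00132). Its paralog Neil1 had a log2 fold change of 0.40 (adjusted p = 0.0489, above 0.05 in most of the alternative analyses, 10 of 18). Tdg, the glycosylase that removes the oxidised bases made by TET enzymes, stood at 996 ± 25.9 in DKO and 1082 ± 68.3 in VAV-cre libraries (log2 -0.12, adjusted p = 0.2).

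Of 10 readers of methylated DNA, 1 rose, 1 fell and 8 did not pass, with a median log2 fold change of 0.02. Without DKO library 3, VAV-cre library 1 or VAV-cre library 4, each left out in turn, 2 were higher. Zbtb38, a zinc finger protein that binds methylated sites, rose to 879 ± 35.6 in DKO libraries, against 562 ± 60.4 in VAV-cre libraries (log2 0.65, adjusted p = 0.000118). Mbd4, a glycosylase that removes thymine left by deaminated methylcytosine and is also counted with base excision, stood at 163 ± 25.3 in DKO and 240.4 ± 16.6 in VAV-cre libraries (log2 -0.57, adjusted p = 0.00564). Mbd5 (log2 0.43, adjusted p = 0.0525) and Mbd2 (log2 0.24, adjusted p = 0.0537) lay just outside the threshold, and Mbd3 had a log2 fold change of -0.02.

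The supply of methyl groups and of the TET cosubstrate was described by 2 lists. Of 13 genes of the methionine and folate cycles, which make the methyl donor S-adenosylmethionine, 11 were tested, 4 fell, 1 rose and 6 did not pass (median log2 fold change -0.16). Shmt2, the mitochondrial serine hydroxymethyltransferase, stood at 508 ± 25 in DKO and 903 ± 50.3 in VAV-cre libraries (log2 -0.83, adjusted p = 5.7e-06). Ahcy, which clears the product inhibitor of methyltransferases, held 860.2, 850.3, 963 and 910.2 in DKO libraries, against 1319, 1319, 1285 and 1295 in VAV-cre libraries (log2 -0.54, adjusted p = 5.18e-05). Mthfd1 (log2 -0.62, adjusted p = 0.000392) and Shmt1 (log2 -1.38, adjusted p = 0.0186, above 0.05 in 2 of 18 alternative analyses) also fell. Mat2b, a regulatory subunit of the synthetase, rose (log2 0.34, adjusted p = 0.000794), and Mat2a, the catalytic subunit, stood at 3472 ± 183 in DKO and 3518 ± 586 in VAV-cre libraries (log2 -0.01, adjusted p = 0.97).

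Of 11 enzymes that make or use alpha-ketoglutarate or clear its competitors, 2 rose, 2 fell and 7 did not pass (median log2 fold change 0.00). Idh1, the cytosolic isocitrate dehydrogenase, held 2166, 2398, 2076 and 2265 in DKO libraries, against 1216, 1498, 1324 and 1404 in VAV-cre libraries (log2 0.71, adjusted p = 1.7e-05). D2hgdh, which oxidises hydroxyglutarate, a competitor of the cosubstrate, stood at 362 ± 59.6 in DKO and 223 ± 14.8 in VAV-cre libraries (log2 0.69, adjusted p = 0.00114). Idh3a, a subunit of the mitochondrial isocitrate dehydrogenase, fell (log2 -0.48, adjusted p = 0.00136). Fh1, the fumarase, had a log2 fold change of -0.34 (adjusted p = 0.0324, above 0.05 in 8 of 18 alternative analyses). Idh2, the mitochondrial paralog of Idh1, stood at 1440.2 ± 107 in DKO and 1443 ± 167 in VAV-cre libraries (adjusted p = 0.989).

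**Figure D4:**
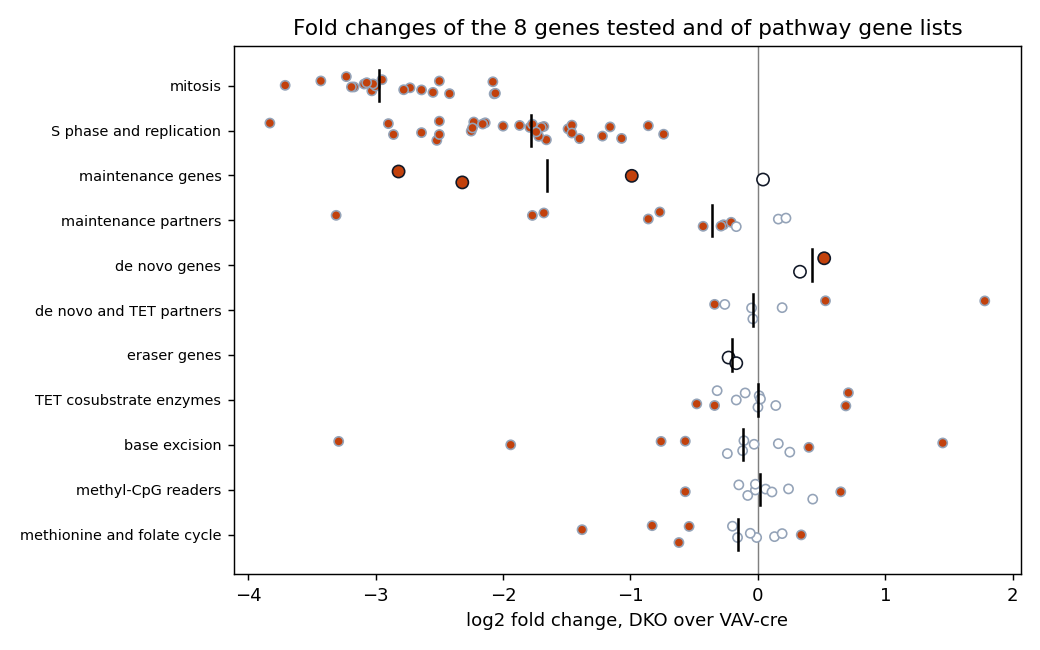
Log2 fold change, DKO over VAV-cre (horizontal axis), of each tested gene in 11 lists (rows); filled points have an adjusted p under 0.05, open points do not, larger points are the 8 writers and erasers, and black bars are medians. The mitosis and S phase rows lie wholly left of 0 (medians -2.98 and -1.78), while the rows of readers and of TET cosubstrate enzymes centre on 0 (medians 0.02 and 0.00).

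The genes with the most similar profile were found by the root mean square difference of centred log2 values over the 8 libraries, among 11110 genes, as a description only. The measure includes the difference between DKO and VAV-cre libraries, so a similar fold change follows from the way these genes were picked. Nearest to Uhrf1 were Pkmyt1 (0.051), Hpgd (0.085) and Bard1 (0.101), with log2 fold changes of -2.75, -2.78 and -2.84. Nearest to Dnmt1 were Rpa1 (0.073), Stk10 (0.077) and Dab2 (0.078), and nearest to Hells were Rad54l (0.154), Chaf1a (0.194) and Trim59 (0.197), Chaf1a being among the S phase genes. Nearest to Dnmt3a were Cd86 (0.098), Ipp (0.124) and Rnf10 (0.128). Of these, Cd86, which encodes a costimulatory ligand, had a log2 fold change of 0.51. Uhrf2 was closest to Ndufaf5 (0.029), Tuba1a (0.036) and Uqcrfs1 (0.043), Dnmt3b to Ptger2 (0.088), Abcd4 (0.101) and Sh3d19 (0.103), Tet2 to Upf3b (0.081), Ppa1 (0.087) and Alkbh1 (0.092), and Tet3 to Rc3h2 (0.049), Tomm70a (0.051) and Trappc13 (0.052).

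Germline genes that DNA methylation keeps silent in other cells, and imprinted genes as a separate list, were low in both groups or were not called. Of 14 germline genes kept silent by promoter methylation in somatic cells, 13 were below the filter, and 8 of these had no read in any library (Mael, Sycp1, Tex11, Taf7l, Stk31, Asz1, Tex101 and Rhox5). The highest value among the 13 was 11.1, for Ddx4 in a DKO library. Ddx4 totalled 29 reads in DKO and 12 in VAV-cre libraries, and Sycp3 totalled 0 reads in DKO and 8 in VAV-cre libraries. Slc25a31 was the 1 gene tested (log2 0.16, SE 0.64, adjusted p = 0.861). Of 13 imprinted genes with a row 4 were tested and none was called: Zrsr1 had a log2 fold change of 0.47 (adjusted p = 0.0598), Impact 0.10, Cdkn1c -0.28 and Igf2r 0.00. H19, Meg3 and Airn were not analysed here. No DNA methylation was measured in these samples, so levels of the mark itself are not known.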

How the data were processed

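Libraries of polyadenylated RNA (Kapa mRNA HyperPrep) had been read as pairs of 150 bases on a NovaSeq X, per the labels' protocols. Salmon 1.4.0, DESeq2 and build mm10 are named in the submitters' processing notes. No source used here states the annotation release, a filter or strand-specific counting. The deposited values are a signal: 1 normalized read count per gene and library, in 34432 rows, of which 17618 had a read. Multiplying each library's values by 1 size factor (0.9011 to 1.037) gave whole reads for 100% of values within 0.01, which gave the depth and fed the count models.

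Rows reaching 10 in 4 or more libraries entered a two-sided limma fit (3.58.1, R 4.3.3) of genotype alone, with robust and trended variance, to log2(value + 1), a scale that understates changes of low genes. Ratios within libraries were compared by exact permutation. The labels name no batch. Replicates differed beyond sampling noise (chi-square per gene 8.201 to 38.17), and DKO libraries 1 and 2 (8.201) and 3 and 4 (9.291) were closer to each other than across (19.45 to 26.66), so 1 alternative averaged these pairs. The others were pseudocounts 0.5 and 5, no filter, no trend or robust options, TMM and quantile scaling, a replicate block, edgeR 4.0.16, DESeq2 1.42.0 and each library left out. The pipeline was tested on simulated data. Positions and lengths are from GENCODE M21 by gene identifier, promoters from RefSeq. Shares by the length of all exons were added after seeing the data.

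The 9 genes, the lists and the naming rule were chosen with earlier results of these data known. Named were the 9 genes, both targeted genes, up to 4 genes with the smallest adjusted p per list, and for each gene tested the 3 genes with the most similar profile. Other list genes were named after their values were seen.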

Additional observations from a re-analysis of the deposited data

Results flagged for a closer look

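In 114 groups of 4 libraries, each a gene or ratio in 1 genotype, 8 held a library whose gap to the nearest other exceeded the 95% critical value of Dixon's test. Chance flags about 1 in 20 such groups, and no cause was tested. Among the 9 genes, Tet3 in DKO library 3 was low at 1153, against 1369.9, 1371 and 1339 in the other DKO libraries. The log2 ratio of Uhrf1 to Uhrf2 was low in VAV-cre library 1 at 0.87, against 1.21, 1.27 and 1.23 in the others, and still far above all DKO libraries. Dnmt1 over the S phase list was high in DKO library 1 at 2.46, against 2.31, 2.32 and 2.31. Among partner and list genes, Cdca7 was high in DKO library 2 at 229, against 145, 156 and 146, and Zbtb38 was high in DKO library 4 at 932, against 856, 866 and 860.3. Parp1 and Mcm5 were low in VAV-cre library 1 at 3265 and 4081, with the other VAV-cre libraries between 3649 and 3689.5 for Parp1 and between 4775 and 4929 for Mcm5. Pcna was low in VAV-cre library 4 at 12050.3, against 13673, 13995 and 14005.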

How the results depend on the processing

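For the 8 genes tested, direction and side of the threshold were the same in all 18 alternatives. Log2 fold changes ranged from -2.87 to -2.78 for Uhrf1, -2.40 to -2.20 for Hells, -1.09 to -0.93 for Dnmt1, 0.35 to 0.60 for Dnmt3a (adjusted p 0.00173 to 0.0425), 0.01 to 0.09 for Uhrf2, 0.26 to 0.47 for Dnmt3b (adjusted p 0.0683 to 0.469), -0.33 to -0.15 for Tet2 and -0.22 to -0.11 for Tet3. Over all genes 2671 were higher and 2773 lower in the main analysis, 2215 and 2434 with the replicate block, 1924 and 2208 with DKO pairs averaged, and 3038 and 2505 with quantile scaling, which turned the balance. Deviations of libraries with the same replicate number showed no pairing (correlations -0.0535 to 0.0316, against -0.191 to 0.146 for different numbers). This does not exclude a pairing. The replicate block changed no call among the 8 genes. Some list counts moved by over 1.5 times, and the cause was not tested. Among de novo and TET partners 2 were lower with DESeq2, among readers 2 were higher with quantile scaling and with DESeq2, among base excision genes 1 was higher without the filter, with the replicate block, with DKO pairs averaged and with edgeR, and among cosubstrate enzymes 1 was lower without trend and robust options and with DKO pairs averaged. The log2 difference of Tet3 over Tet2 was -0.01 with quantile scaling. Leaving out 1 library at a time gave 0 to 1 higher among maintenance partners, 1 to 2 lower among de novo and TET partners, 1 to 2 higher among readers and among base excision genes and 1 to 3 lower among cosubstrate enzymes. It gave -0.09 (without DKO library 4) to 0.34 for Dnmt3a over Dnmt3b and -0.04 (without DKO library 2; -0.02 without VAV-cre library 1) to 0.15 for Tet3 over Tet2. Depth limits Tet1, Dnmt3b and the germline genes, and with 4 libraries per group no ratio could pass after adjustment unless more than 4 of the 7 reached the smallest p.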
